A study of Mus musculus with 24 samples.

Results

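The enzymes of the tricarboxylic acid (TCA) cycle were followed through the RNA sequencing of mouse gastrocnemius muscle as 9 named genes, chosen by symbol, out of 55416 genes in the count table. These were Cs, Idh2, Idh3a, Ogdh, Sucla2, Sdha, Fh1, Mdh1 and Mdh2. All 9 passed the filter on low counts that left 16408 genes for testing, so no member dropped out. The mice were wild-type C57BL/6J of both sexes (the labels spell the strain C56BL6J), housed either as sham controls that stayed free to move about or in small mouse cages (SMC) for 8 weeks to restrict movement. Each sex was divided into a sham and an SMC group of 6 mice, 4 groups in all, with 1 library per mouse. The cages limit ambulation without casting, unloading or denervation of the limb, and no mouse carried a transgene. Each replicate number in the text is the number that the labels give to the mouse, from 1 to 24.

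The TCA cycle runs in the mitochondrial matrix. It condenses acetyl groups from pyruvate or fatty acids with oxaloacetate, oxidizes the resulting citrate stepwise to carbon dioxide, and passes the electrons to the respiratory chain as NADH and reduced flavin. In skeletal muscle its enzymes are abundant in oxidative fibres, which are rich in mitochondria, and lower in glycolytic fibres. Idh2 and Mdh1 are less strict members of the cycle: IDH2 uses NADP and runs beside the NAD-dependent isocitrate dehydrogenase, and MDH1 is cytosolic and works with mitochondrial MDH2 in the malate-aspartate shuttle.

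Total counts per library lay between 23026627 and 36880413, and levels are given as CPM, counts as a share of a fixed library size, on libraries scaled by the trimmed mean of M values (TMM). Skeletal muscle identity was clear, since the 7 defining muscle genes summed to between 152980.4 and 399667.4 CPM. The 9 members together took 0.233% to 0.476% of the counts of a library. Male sham replicate 4 and male SMC replicate 14, the libraries singled out for a check, stood apart from their groups for these genes. Replicate 4 was the lowest of its 6 libraries for 9 of 9 members, and replicate 14 was the lowest of its own for 9 of 9. Female sham replicate 7 was the lowest of its group for 2 of 9, Idh2 and Mdh1. In the same group replicate 8 was the lowest for Cs, Idh3a, Ogdh, Sucla2, Sdha and Mdh2. Some library must be lowest in each group, and the members vary together. Results that rest on replicates 4, 7 and 14 are given with and without them. In whole muscle, a lower CPM from fewer fibres of a kind and from less RNA per fibre cannot be told apart.

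Promoters were read for the members whose levels are described most closely: Idh2 and Mdh1, which had the widest spread between mice, Mdh2, the mitochondrial counterpart of Mdh1, and Sdha, the member with the most matches to the nuclear respiratory factor 1 type of motif. Each run below is the 250 bases before the RefSeq start of the gene in GRCm38.p6, read 5′ to 3′ on the strand of the gene. RefSeq starts differ from the gene starts of the GENCODE annotation of GRCm38, so a window can hold sequence inside the GENCODE gene. The Mdh1 window lies wholly within that gene (chr11:21556787-21572367). Those of Idh2, Sdha and Mdh2 reach past the GENCODE starts at 80115392, 74350280 and 135778480. Capitals mark GGGCGG (SP1 type) and the longer NRF1-type motif, read on both strands. The windows are chr7:80115351-80115600 for Idh2, chr11:21571935-21572184 for Mdh1 and chr13:74350241-74350490 for Sdha, all on the minus strand, and chr5:135778399-135778648 on the plus strand for Mdh2.
Idh2: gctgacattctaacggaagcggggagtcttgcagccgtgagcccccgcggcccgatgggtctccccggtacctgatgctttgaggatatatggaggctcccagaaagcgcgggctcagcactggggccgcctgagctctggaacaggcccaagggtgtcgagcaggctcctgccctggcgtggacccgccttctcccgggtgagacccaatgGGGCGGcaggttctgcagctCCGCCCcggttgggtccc
Mdh1: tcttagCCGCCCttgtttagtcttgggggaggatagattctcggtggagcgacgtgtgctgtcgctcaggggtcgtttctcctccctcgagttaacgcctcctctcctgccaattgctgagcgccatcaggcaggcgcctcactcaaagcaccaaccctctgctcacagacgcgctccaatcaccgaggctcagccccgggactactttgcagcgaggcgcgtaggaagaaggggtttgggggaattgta
Mdh2: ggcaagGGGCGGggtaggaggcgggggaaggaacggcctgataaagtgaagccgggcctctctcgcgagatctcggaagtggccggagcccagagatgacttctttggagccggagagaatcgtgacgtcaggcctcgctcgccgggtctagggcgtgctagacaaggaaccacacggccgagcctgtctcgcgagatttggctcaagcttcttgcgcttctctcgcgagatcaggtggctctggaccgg
Sdha: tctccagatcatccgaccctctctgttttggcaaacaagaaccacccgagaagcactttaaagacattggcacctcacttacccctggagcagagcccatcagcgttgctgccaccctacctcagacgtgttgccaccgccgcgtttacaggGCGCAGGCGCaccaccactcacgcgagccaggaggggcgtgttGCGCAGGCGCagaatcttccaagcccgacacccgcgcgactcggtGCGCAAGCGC
RefSeq promoters were matched for 8 of the 9 members. GGGCGG was found in 7 of the 8 (Cs, Fh1, Idh2, Mdh1, Mdh2, Ogdh and Sucla2), against 32.7% of 32851 promoters. Ogdh has 6 such windows in RefSeq, and 2 of them held it, both reaching past the GENCODE start of the gene at 6291633. The member windows with GGGCGG were 52.8% to 74.0% G and C, where the median of all promoters was 52.4%. The part of base composition in this count was not tested. The NRF1-type motif was found in Sdha, with 3 matches, and in Sucla2, against 3.74% of promoters. The Sucla2 window (chr14:73552536-73552785) lies within the GENCODE gene, which starts at 73525319. All its matches are thus inside the gene by that annotation. The estrogen-related receptor type TNAAGGTCA was in 0 of 8 members (1.14% of promoters) and its core AGGTCA, which that motif contains, in Fh1 and Sucla2 (14% of promoters). CCGGAAGT, of the ETS type, and TATAAA were in 0 of 8, against 2.88% and 12.4% of promoters. Of the promoters shown, those of Idh2, Mdh1 and Mdh2 held GGGCGG and that of Sdha did not. A relation between motifs and the spread between mice was not tested. A match is a run of letters and not a measured site.

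Levels of different genes were compared per kilobase of exon, with exon lengths from the GENCODE annotation of GRCm38. In mean CPM per kilobase over the 24 mice, Ogdh, which encodes the E1 subunit of the oxoglutarate dehydrogenase complex, was the highest at 165. It was followed by Sdha (121), the flavoprotein subunit of succinate dehydrogenase, and then by Mdh2 (109), Mdh1 (106) and Cs (101), which encodes citrate synthase. Idh2 (84.6), Idh3a (66.5), the catalytic subunit of the NAD-dependent enzyme, Sucla2 (49.4), the ADP-specific subunit of succinyl-CoA synthetase, and Fh1 (37.9), fumarase, came lower. Ogdh lay above Sdha in 24 of 24 mice, and Sdha above Mdh2 in 24 of 24. At the low end, Idh3a lay above Sucla2 and Sucla2 above Fh1 in 24 of 24 mice each. Even with these lengths, the middle of the order was not separated between mice. Mdh2 was above Mdh1 per kilobase in 12 of 24 mice and Mdh1 above Cs in 14 of 24. Cs exceeded Idh2, and Idh2 exceeded Idh3a, in 19 of 24 mice each.

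**Figure D1:**
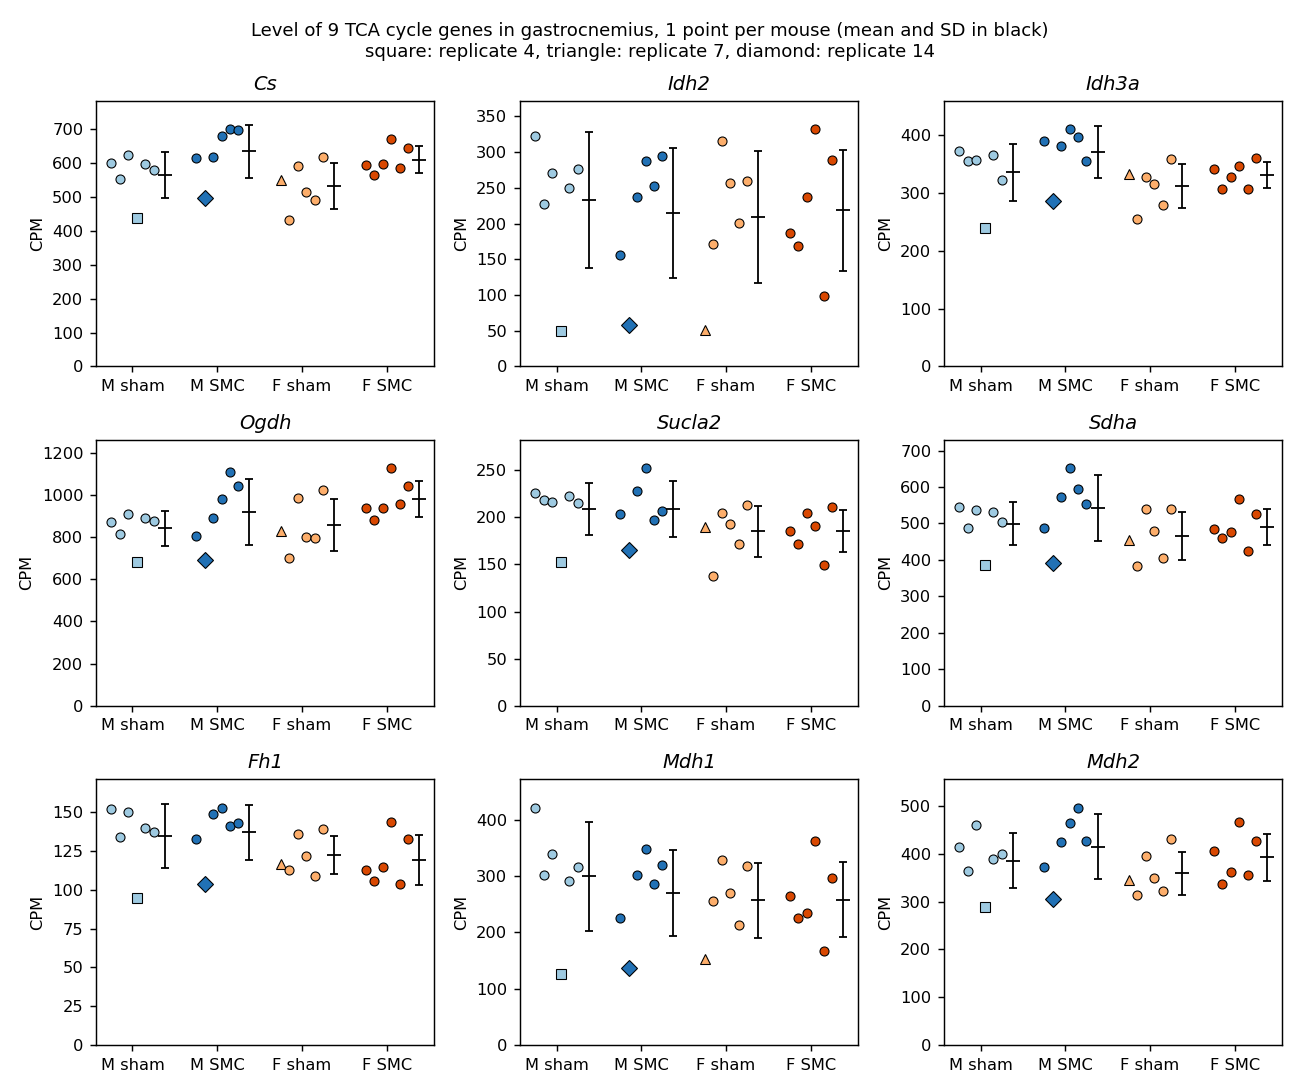
Level of each member in CPM (linear axis from 0), with 1 point per mouse in the 4 groups (M, male; F, female) and the mean ± SD of 6 mice in black. Replicates 4 and 14 sit lowest in their groups in all 9 panels, and replicate 7 only in the Idh2 and Mdh1 panels; the SMC and sham points overlap throughout.

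The comparison of SMC with sham asks whether restricted movement altered the transcripts of the cycle. No member passed the test in males. In edgeR's quasi-likelihood fit with Benjamini-Hochberg adjustment over 16408 genes, 0 of 9 members had an FDR under 0.05, where 0.0% of all genes did. At an unadjusted p under 0.05 the count was 0 of 9 members against 11% of all genes, and DESeq2, which called 0.78% of all genes, and limma, which called 0.567%, each called 0 of 9 members. In females 0 of 9 members were called against 0.341% of all genes, with 0 of 9 at an unadjusted p under 0.05 against 12.5%. DESeq2 (1.63% of all genes) and limma (0.0975%) again called 0 of 9. Averaged over the sexes, 0 of 9 were called against 2.36%, and 1 of 9 (Cs) had an unadjusted p under 0.05 against 17.5%. DESeq2 called 4.74% of all genes in that average and limma 3.3%, and 0 of 9 members each. The 6 SMC and 6 sham values of a member overlapped in both sexes for 9 of 9, where 0.902% of all genes in males and 1.03% in females did not overlap.

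Cs, whose product forms citrate and is widely used as a marker of mitochondrial content, had the smallest adjusted p-values of the members. In males its level ran from 437 CPM through a median of 587 to 622 in sham mice, and from 496 through 649 to 699 in SMC mice. In females it ran from 432 through 531 to 618 in sham mice, and from 565 through 597 to 669 in SMC mice. The SMC medians were higher in both sexes, with overlapping groups. The log2 fold change was 0.17 ± 0.10 (SE; n = 6 per group, 95% interval -0.04 to 0.37, FDR = 0.561) in males by edgeR. In females it was 0.20 ± 0.10 (interval -0.01 to 0.40, FDR = 0.426). Averaged over the sexes it was 0.18 ± 0.07 (interval 0.04 to 0.33), which had an unadjusted edgeR p of 0.0158 and an FDR of 0.168. A change of the Cs transcript was therefore not detected after adjustment, and its upper bound in males was 0.37 on the log2 scale.

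Ogdh had the second smallest adjusted p-value of the members in females and in the average, and Idh3a in males. The level of Ogdh ran from 682 through 874 to 911 CPM in male sham mice and from 690 through 936 to 1109 in male SMC mice. In female sham mice it ran from 700 through 815 to 1022, and in female SMC mice from 882 through 948 to 1124. The log2 fold change by edgeR was 0.13 ± 0.11 in males (SE, FDR = 0.736) and 0.20 ± 0.11 in females (FDR = 0.497), and 0.16 ± 0.08 averaged over the sexes (unadjusted p = 0.0511, FDR = 0.287). As for Cs, SMC and sham mice overlapped in both sexes. Idh3a had a log2 fold change of 0.14 ± 0.10 in males and 0.09 ± 0.10 in females, with FDR values of 0.681 and 0.796 from edgeR.

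The enzymes from succinyl-CoA to oxaloacetate were not called in either sex. Sucla2 had medians of 218 CPM in sham and 205 in SMC males, and of 192 in sham and 188 in SMC females, and its log2 fold change in females was 0.00 ± 0.11 (SE, interval -0.23 to 0.24). Sdha differed by 0.12 ± 0.12 in males and 0.07 ± 0.12 in females. For Fh1, the step from fumarate to malate, the log2 fold change was 0.03 ± 0.11 in males and -0.04 ± 0.11 in females, with intervals of -0.20 to 0.25 and -0.27 to 0.19. Mdh2 differed by 0.11 ± 0.12 in males and 0.12 ± 0.12 in females. The smallest edgeR FDR in either sex among these 4 genes was 0.733.

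Idh2 and Mdh1 could be measured least closely. Idh2 ran from 49.0 CPM through a median of 261 to 323 in male sham mice and from 58.3 through 245 to 295 in male SMC mice. Females covered a similar range, from 51.2 through 229 to 315 in sham mice and from 98.7 through 212 to 332 in SMC mice. The groups overlapped almost wholly. Its log2 fold change was -0.12 ± 0.41 in males (SE, interval -0.96 to 0.72) and 0.06 ± 0.41 in females (interval -0.77 to 0.90). These values turned on single libraries. In males the log2 fold change of Idh2 was -0.34 without replicate 4 and 0.08 without replicate 14, and in females it was -0.14 without replicate 7 and 0.22 without replicate 9. Without replicates 4 and 14 it was -0.14 ± 0.33 in males, and without replicates 4, 7 and 14 it was -0.14 ± 0.24 in males (interval -0.63 to 0.35) and -0.14 ± 0.23 in females (interval -0.61 to 0.33). Mdh1 had a log2 fold change of -0.15 ± 0.24 in males (interval -0.64 to 0.35) and 0.01 ± 0.24 in females (interval -0.49 to 0.51). Its value in males was -0.31 without replicate 4 and -0.01 without replicate 14, and in females it ran from -0.11 without replicate 22 to 0.11 without replicate 23. Without replicates 4, 7 and 14 it was -0.17 ± 0.16 in males and -0.10 ± 0.16 in females. Exons of Mdh1 (chr11:21556787-21572367 in GRCm38) overlap those of Wdpcp on the opposite strand. Whether reads were counted by strand is not given in the sources used here, and the effect of the overlap on the counts of Mdh1 was not tested. Wdpcp held 0.613% to 2.37% as many counts as Mdh1.

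**Figure D2:**
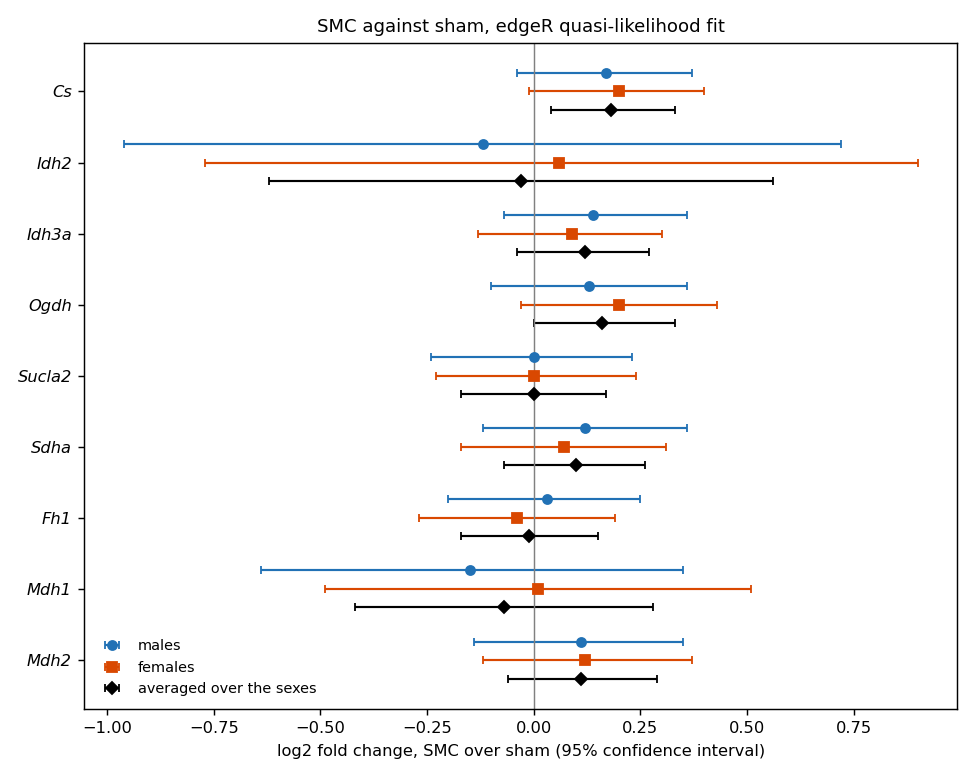
Log2 fold change of SMC over sham (x axis) with its 95% confidence interval for each member, in males, in females and averaged over the sexes, from the edgeR fit of 24 libraries. The average for Cs, 0.18 with an interval from 0.04 to 0.33, is the only interval plotted that excludes 0, and the intervals of Idh2 are the widest.

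As a list, the members had a median log2 fold change of 0.105 in males, beside -0.00441 over all genes tested, and 0.0709 in females, beside -0.011. Positive values were found for 6 of 9 members in males, against 49.1% of all genes, and for 8 of 9 in females, against 47.6%. The sign depends on the scaling. With libraries scaled by total counts the median of all genes moved to -0.133 in males and -0.149 in females, and 2 of 9 and 3 of 9 members were positive. Relative to the median of all genes under that scaling, 6 of 9 members in males and 8 of 9 in females were higher, compared with 7 of 9 and 8 of 9 under TMM. By limma, 5 of 9 members were positive in females. The 9 genes vary together from mouse to mouse, and are not 9 independent measurements.

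The response to SMC was compared between the sexes in the same fit. The interaction term was called for 0 of 9 members by edgeR, where 0.0% of all genes were called, and 0 of 9 had an unadjusted p under 0.05, against 5.13% of all genes. DESeq2 called 0.00609% of all genes, 1 gene that is no member, and limma 0 genes. The sign was positive for 3 of 9 members and for 51.6% of all genes. The difference in log2 response, male minus female, ranged over the members from -0.18 for Idh2 (SE 0.57) to 0.07 for Fh1 (SE 0.16). For Cs it was -0.03, with an interval of -0.32 to 0.26, and for Sdha 0.05, with an interval of -0.29 to 0.39. These intervals do not show that the sexes responded alike.

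The libraries that stood apart differed in which members were low. In male sham replicate 4, Cs was at 437 CPM against 551 to 622 in the other 5 mice, and Fh1 at 94.7 against 134 to 152. In male SMC replicate 14, Cs was at 496 CPM against 614 to 699, and Fh1 at 104 against 133 to 153. These values are 66.4% to 74.9% of the mean of the other libraries of the group. All 9 members were low together in both libraries, and Idh2 was lowest relative to the other libraries, at 18.1% in replicate 4 and 23.7% in replicate 14.

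Female sham replicate 7 showed another pattern. Its Idh2 was at 51.2 CPM against 171 to 315 in the other 5 female sham mice, and its Mdh1 at 153 against 213 to 329. Its Cs, however, was at 549 CPM, within the 432 to 618 of the others, and its Idh3a at 332, within 255 to 359. The remaining 7 members lay at 94.0% to 108% of the mean of the others. Only Idh2 and Mdh1 were thus the lowest of the group in this mouse.

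The slow fibre score was also the lowest of its group in replicates 4, 7 and 14, but in 7 and 14 its distance below the group differed from that of most members. The score was far below its group in replicate 7, where Idh2 and Mdh1 were low and most members were not. In replicate 14, where all members were low, it was only a little below. The slow fibre score, the mean log2 CPM of 10 genes of slow contractile and calcium-handling proteins, was 1.42 in replicate 4 against 5.84 to 6.97 in the other male sham mice, and 1.22 in replicate 7 against 6.23 to 7.44 in the other female sham mice. In replicate 14 it was 5.09, against 5.48 to 7.29. Myh7, the slow myosin heavy chain, was at 7.99 CPM in replicate 4 and 7.02 in replicate 7. The other sham mice held 293 or more. In replicate 14 Myh7 was at 275, where the other male SMC mice held 291 or more. The slow genes Tnni1 and Tnnc1, at 25.0 and 27.3 CPM in replicate 14, lay within the range of that group (others 20.4 to 97.7 and 25.4 to 122). All 10 slow genes were detected, and their summed level ran from 86.4 to 2337.8 CPM in male sham, 692 to 3169.9 in male SMC, 72.9 to 3122.9 in female sham and 1490.5 to 4459.1 in female SMC mice. The fast fibre score was 12.42 in replicate 4 and 12.56 in replicate 7, each above the other libraries of its group. Muscle atrophy genes scored 6.84 in replicate 4, against 5.07 to 5.75, and 6.85 in replicate 7, within the 5.78 to 6.96 of its group. In replicate 14 they scored 5.30, above the 4.84 to 5.12 of the other male SMC mice, and the defining muscle genes scored 13.65, below their 13.82 to 14.02. Adipocyte markers scored 3.71 in replicate 4, above the 0.01 to 2.86 of the other male sham mice, and 2.79 in replicate 14, above 0.79 to 2.72. Endothelial markers were lowest of the group in replicates 4, 7 and 14, at 5.33 (others 5.51 to 5.64), 4.91 (5.30 to 5.66) and 5.43 (5.53 to 5.84). Fibroblast markers scored 6.30 in replicate 4 (others 6.67 to 7.20), 5.95 in replicate 7 (6.56 to 7.61) and 6.80 in replicate 14, within 6.62 to 7.06. Macrophage markers were lowest in replicate 4, at 2.48 (2.92 to 3.44), and Schwann cell markers highest in replicate 14, at 3.87 (3.20 to 3.71). Tendon markers were lowest in replicates 7 and 14, at 3.32 (3.52 to 5.62) and 3.22 (3.74 to 4.42). The fibre, muscle and cell type scores of these libraries not given here lay within their groups. The part of fibre or cell composition in the low values of the members was not tested.

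Over all 24 mice, after subtraction of group means, log2 CPM of Idh2 followed the slow fibre score with r = 0.92 and that of Mdh1 with r = 0.86, while the other 7 members had r between 0.49 (Idh3a) and 0.69 (Fh1). Without replicates 4, 7 and 14, over 21 mice, r was 0.90 for Idh2, 0.84 for Mdh1 and 0.84 for Sdha. For the remaining members it lay between 0.55 (Idh3a) and 0.79 (Fh1). The rank correlation over these 21 mice was 0.89 for Idh2, 0.88 for Fh1, 0.85 for Sdha and 0.82 for Mdh1. A high r with the score was thus not particular to Idh2 and Mdh1. These correlations describe libraries that share their depth scaling with the score. The pooled SD within groups was 0.884 for Idh2 and 0.479 for Mdh1 on the log2 scale, and 0.169 to 0.211 for the other 7. Among 1030 genes with a mean of at least 100 CPM, whose median SD was 0.193, Idh2 ranked 19 and Mdh1 ranked 66. The spread of Idh2 without the 3 libraries was still 0.43, and that of Mdh1 0.284.

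**Figure D3:**
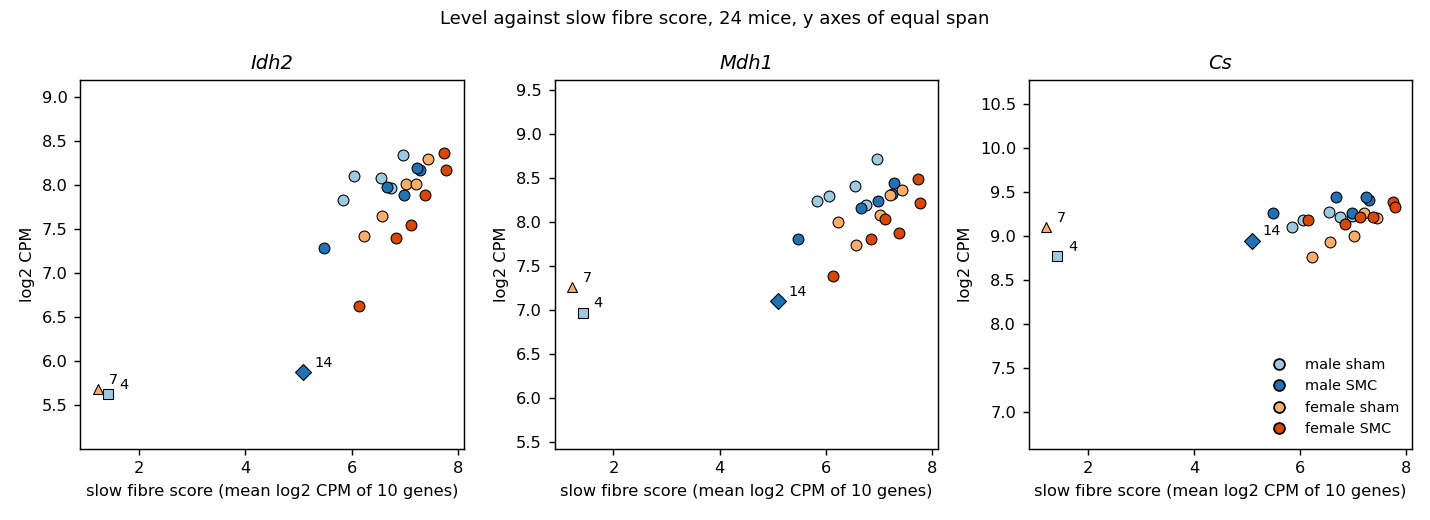
Log2 CPM of Idh2, Mdh1 and Cs against the slow fibre score of the same mouse, 24 mice colored by group, with y axes of equal span. Replicates 4 and 7 lie at scores of 1.42 and 1.22, low in Idh2 and Mdh1, whereas Cs of replicate 7 stays within the range of the other mice.

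When the slow fibre score was added to the fit, the SMC difference of Idh2 averaged over the sexes was -0.42 ± 0.13 on the log2 scale (SE, edgeR FDR = 0.064) and that of Mdh1 -0.30 ± 0.10 (FDR = 0.0898), compared with -0.03 ± 0.29 and -0.07 ± 0.17 without it. Neither passed the threshold, although 4.44% of all genes did in that fit. Within a sex that fit called 0 of 9 members too, against 0.0549% of all genes in males and 1.08% in females. The score itself is measured in the same libraries, and the slow genes were not level between the treatments. Their median summed level was 1577.8 CPM in male sham, 2211.8 in male SMC, 2112.3 in female sham and 3036.0 in female SMC mice, with overlapping ranges. The part of this difference in the values from that fit was not tested. The SMC comparison called 0 of 9 members in either sex with each of the 24 libraries left out in turn, and 0 of 9 without replicates 4 and 14 together, when 0.0121% of all genes were called in males, 0.83% in females and 1.55% in the average. Without replicates 4, 7 and 14 it was also 0 of 9, against 0.0121%, 0.837% and 2.52% of all genes.

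Males were also compared with females, averaged over sham and SMC. In the fit of 24 libraries 0 of 9 members were called by edgeR, against 4.93% of all genes, and 2 of 9, Fh1 and Sucla2, had an unadjusted p under 0.05, against 19.3%. DESeq2 (6.72% of all genes) and limma (8.65%) called 0 of 9. Levels of 0 of 9 members were free of overlap between male and female sham mice, against 1.13% of all genes. Fh1 ran from 94.7 CPM through 141 to 153 in 12 males and from 104 through 116 to 144 in 12 females. Sucla2 ran from 153 through 216 to 252 in males and from 138 through 190 to 213 in females. In 10 of 12 males each gene exceeded the female median. The log2 difference, male over female, was 0.17 ± 0.08 for Fh1 (SE, FDR = 0.237) and 0.17 ± 0.08 for Sucla2 (FDR = 0.249).

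This comparison depended on replicates 4 and 14, both male. Without them, 3 of 9 members were called higher in males by edgeR, where 7.06% of all genes were called in either direction. These were Fh1 with a log2 difference of 0.25 (FDR = 0.0152), Idh3a with 0.21 (FDR = 0.0287) and Sucla2 with 0.24 (FDR = 0.0407). Both libraries are the lowest of their groups in these genes and both are male, so leaving them out raises the male mean by construction, and these calls are no independent evidence of a sex difference. Ogdh stayed near 0 with the 2 libraries (-0.06 ± 0.08) and without them (0.01 ± 0.07). Leaving out either library alone gave no call. Without replicate 7 as well, the same 3 members were called, against 8.39% of all genes, and with the slow fibre score in the fit only Fh1 was called (FDR = 0.0384), against 9.31%. A direction of male over female held for 8 of 9 members under TMM, total count and DESeq2 scaling and by limma, and 49.0% of all genes had a positive value.

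**Figure D4:**
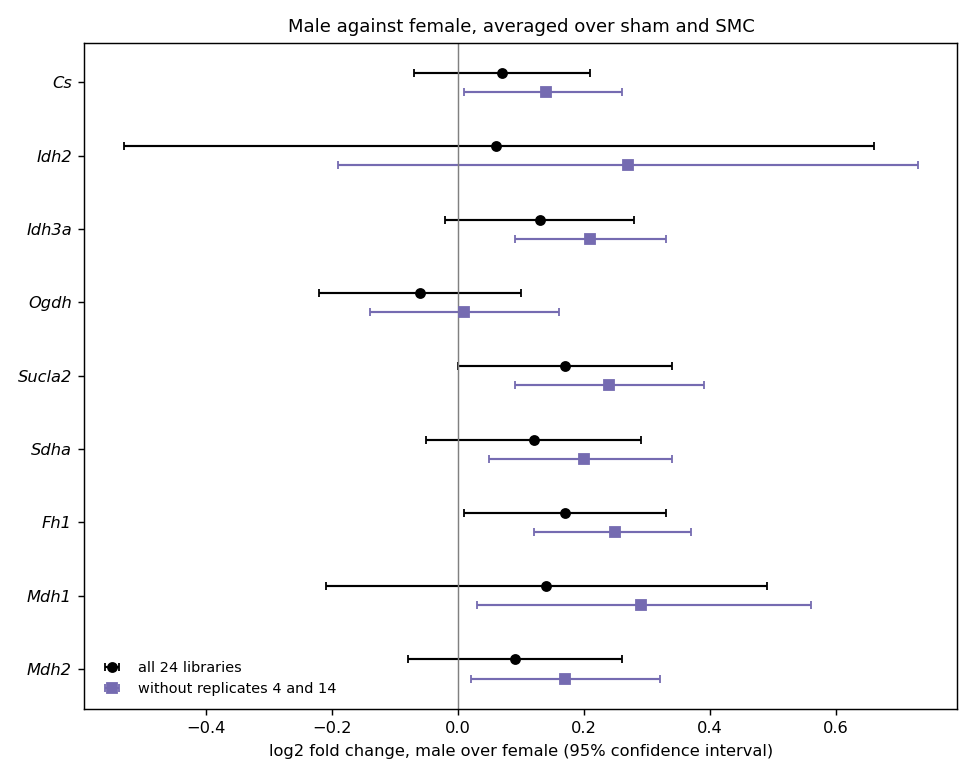
Log2 fold change of male over female, averaged over sham and SMC, with its 95% confidence interval (x axis) for each member, from all 24 libraries and without replicates 4 and 14. Without those libraries the values of Fh1, Idh3a and Sucla2 reach 0.25, 0.21 and 0.24 and Ogdh stays at 0.01.

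The other parts of the enzymes were read from lists of genes. Of 9 genes for the remaining subunits of the NAD-dependent isocitrate dehydrogenase, oxoglutarate dehydrogenase, succinyl-CoA synthetase and succinate dehydrogenase, 0 were called for SMC in males (0.0% of all genes), in females (0.341%) or averaged (2.36%), and 0 between the sexes (4.93%). Their median log2 fold change was 0.0264 in males and 0.0112 in females. Idh3g, a regulatory subunit, had the largest value in females at 0.21 ± 0.10 (SE, FDR = 0.354). Dld had the smallest there, at -0.08 ± 0.13. In males the values ran from -0.05 for Sdhb to 0.12 for Dlst, and averaged over the sexes from -0.05 for Suclg2 to 0.16 for Idh3g (FDR = 0.219). Between the sexes Suclg1 was 0.18 ± 0.06 (FDR = 0.109) and Dld 0.20 ± 0.10 (FDR = 0.242), male over female, and Suclg2 -0.10 ± 0.08.

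Assembly of succinate dehydrogenase needs dedicated factors. Of 4 such genes 0 were called for SMC, where 2.36% of all genes were in the average. Between the sexes, where 4.93% of all genes were called, 1 of 4, Sdhaf1, which aids insertion of iron-sulfur clusters into SDHB, was higher in males by 0.27 ± 0.07 on the log2 scale (edgeR FDR = 0.0266). That call ended, with FDR values of 0.0507 to 0.0545, when any one of male sham replicates 3 and 6, male SMC replicate 15 and female SMC replicate 21 was left out. It also ended with total count scaling (FDR = 0.108) and with no filter on low counts (FDR = 0.0544). For SMC averaged over the sexes Sdhaf1 had 0.16 ± 0.07 (FDR = 0.224), the largest of the 4, and Sdhaf4 -0.16 ± 0.17, the smallest. The same genes were the extremes within each sex, at 0.12 and -0.11 in males and 0.21 and -0.22 in females. Male over female, the values of the 4 ran from -0.05 for Sdhaf3 to 0.29 for Sdhaf4 (FDR = 0.363).

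Entry of pyruvate and the side steps of the cycle were covered by 16 genes, of which 0 were called for SMC in males, in females or averaged. Pcx, pyruvate carboxylase, which refills oxaloacetate, had the lowest value in both sexes, at -0.54 ± 0.27 in males (SE, edgeR FDR = 0.478) and -0.51 ± 0.27 in females (FDR = 0.457), and -0.52 ± 0.19 averaged (FDR = 0.145). Dlat in males (0.15 ± 0.15), Got2 in females (0.22 ± 0.16) and Got2 in the average (0.18 ± 0.11) had the highest. Between the sexes 4 of 16 were called, against 4.93% of all genes, and 6 of 16 had an unadjusted p under 0.05, against 19.3%. Pcx was lower in males by -0.93 ± 0.19 (FDR = 0.00484) and so was Acly, ATP citrate lyase, by -0.38 ± 0.09 (FDR = 0.0119). Both subunits of the mitochondrial pyruvate carrier were higher in males, Mpc1 by 0.24 ± 0.06 (FDR = 0.0257) and Mpc2 by 0.29 ± 0.08 (FDR = 0.0406). Me3, a mitochondrial malic enzyme, at -0.17 ± 0.06 (FDR = 0.0721), and Pdhx, a subunit of the pyruvate dehydrogenase complex, at 0.19 ± 0.07 (FDR = 0.125), were not called. The call of Pcx held in each of 34 alternatives, and that of Acly in all but total count scaling (FDR = 0.0921). Mpc1 lost its call without male sham replicate 3 (FDR = 0.0541) and with total count scaling (FDR = 0.108). Mpc2 lost its call when any of 18 of the 24 libraries was left out. Pcx and Acly are abundant in adipocytes, whose 7 marker genes summed to 69.0 to 171 CPM in male sham, 79.1 to 102 in male SMC, 72.1 to 166 in female sham and 86.2 to 298 in female SMC mice, with 0 of 7 at 0. Their part in the sex difference was not tested.

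Ratios within a library set partner enzymes against each other without regard to library scaling. In all, 6 pairs were compared between SMC and sham in each sex by a two-sided exact permutation test, 12 tests, and none passed after adjustment. The smallest p was 0.0866, for Idh3a over Idh3b in males, with an adjusted p of 0.649, where 924 relabelings allow a smallest p of 0.00216. The log2 ratio of Mdh2 to Mdh1 was 0.44 ± 0.41 (SD, n = 6) and 0.67 ± 0.29 in male sham and SMC mice, and 0.53 ± 0.34 and 0.64 ± 0.24 in female sham and SMC mice. Idh3a over Idh2 reached 2.29 in replicates 4 and 14 and 2.7 in replicate 7, against group medians of 0.47 to 0.67, so that the 2 isocitrate dehydrogenases parted in those mice. Sdha over Sdhb, 2 subunits of 1 complex, was 1.29 ± 0.37 in males kept as sham and 1.42 ± 0.16 in those kept in SMC. It was highest in replicates 4, 14, 7 and 23 of their groups, at 2.01, 1.73, 1.52 and 1.6. Ogdh over Dlst was 2.02 ± 0.12 and 2.02 ± 0.11 in male sham and SMC mice, the pair with the smallest difference between sham and SMC in males.

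**Figure D5:**
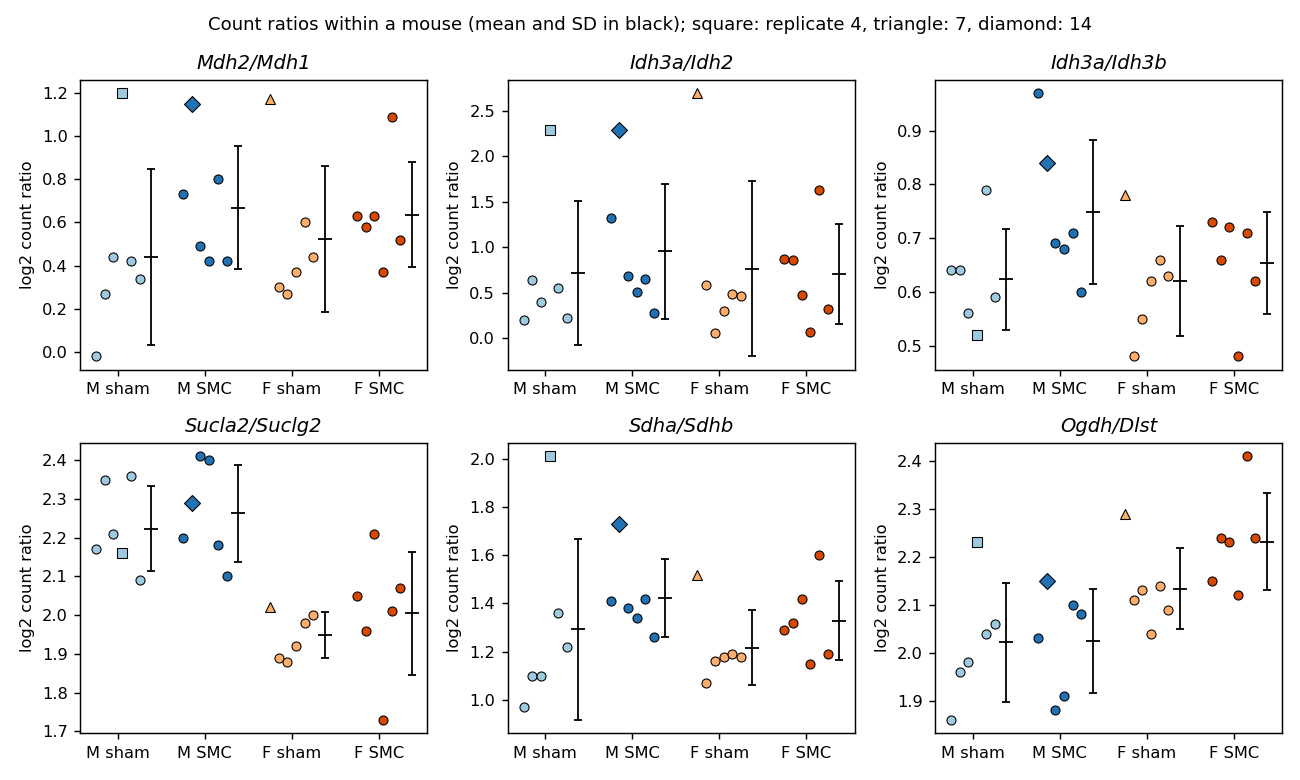
Log2 count ratio of 6 pairs of partner genes in each mouse, in the 4 groups, with the mean ± SD of 6 mice in black (y axes differ between panels and do not start at 0). The highest Idh3a/Idh2 values belong to replicates 4, 14 and 7, at 2.29, 2.29 and 2.7, while sham and SMC points overlap in every panel.

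The members varied together from mouse to mouse. After subtraction of group means, r over 24 mice between pairs of members ran from 0.65 to 0.96 in 36 pairs, with a median of 0.84 and the highest value for Idh2 with Mdh1. Without replicates 4, 7 and 14 the range was 0.49 to 0.95, the highest value was that of Cs with Ogdh, and Idh2 with Mdh1 had 0.89. The genes outside the list whose log2 CPM was most like the mean of the 9 members were Got2, the mitochondrial aspartate aminotransferase (r = 0.98), Ndufs1, a core subunit of complex I (r = 0.98), Dlst, the E2 subunit of oxoglutarate dehydrogenase (r = 0.976), Uqcrc2, a core subunit of complex III (r = 0.975), and Sdhb (r = 0.972). Over 22 mice without replicates 4 and 14, r of these 5 was 0.938 to 0.959. The libraries share their depth scaling, and r is given as a description.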

How the data were processed

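Gastrocnemius RNA of 24 mice was sequenced after ribosomal RNA depletion with a directional library kit. The deposited values are raw counts of reads per Ensembl gene, made by the authors without normalization or pooling, 1 column per mouse. The submitters' processing notes name cutadapt 1.16, STAR 2.7.9a, featureCounts 1.6, DESeq2 1.34.0 and the build GRCm39 (mm39). The annotation release and strand setting are not given in the sources used here. Coordinates and exon lengths here are of GRCm38 (GENCODE), and promoters are RefSeq GRCm38.p6. Symbols were found for 52083 of 55416 identifiers, and the rest held 0.361% of counts.

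Groups follow the sex and treatment in the labels. Counts were filtered by filterByExpr, scaled by TMM and fitted by edgeR 4.0.16 in R 4.3.3 (quasi-likelihood, 1 mean per group, all 24 libraries, Benjamini-Hochberg FDR under 0.05, two-sided). Scores and plots used log2 CPM with a prior count of 2. DESeq2 1.42.0, limma 3.58.1 (voomWithQualityWeights), other scalings and filters, fits within a sex, a slow fibre covariate and left-out libraries were the alternatives. Separate mice are assumed to be behind the columns; p-values measure the spread between these samples. No pair of libraries in a group was a duplicate (60 pairs, smallest chi-square per degree of freedom 10.7). The pipeline was tested on simulated data.

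All 9 members are named. Of the fixed lists, genes with an unadjusted p under 0.05 or with the largest or smallest value were named (not for the difference in response), as were the 5 genes most like the members. Members and lists were chosen with earlier results of these data known. The male-with-female comparison of ratios was chosen after the values were seen. The result for 1 gene of the lists is not reported here.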

Additional observations from a re-analysis of the deposited data

Results flagged for a closer look

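Within each group of 6 mice, the highest or lowest library was marked where its gap to the nearest other exceeded 0.625 of the range of the group. Of 60 groups 16 were marked, where chance gives about 3, since about 1 in 20 groups would be marked by chance. Of these, 9 were in male sham replicate 4, 4 in female sham replicate 7, 2 in male SMC replicate 14 and 1 in female SMC replicate 23. The groups are not independent, because the members vary together.

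In replicate 4 the log2 CPM was 8.77 for Cs (others 9.11 to 9.28), 5.62 for Idh2 (7.83 to 8.34), 7.91 for Idh3a (8.34 to 8.54) and 7.26 for Sucla2 (7.75 to 7.82). It was 8.60 for Sdha (8.93 to 9.09), 6.57 for Fh1 (7.07 to 7.25) and 6.97 for Mdh1 (8.19 to 8.72). All of these lay below the rest of the male sham mice. Its log2 ratio of Idh3a to Idh2 was 2.29 (others 0.20 to 0.64) and that of Sdha to Sdhb 2.01 (0.97 to 1.36).

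In replicate 7 the log2 CPM of Idh2 was 5.68 (others 7.42 to 8.30). Its log2 ratio of Mdh2 to Mdh1 was 1.17 (0.27 to 0.60), of Idh3a to Idh2 2.7 (0.06 to 0.58) and of Sdha to Sdhb 1.52 (1.07 to 1.19). In replicate 14 the log2 CPM of Fh1 was 6.70 (7.06 to 7.26) and the log2 ratio of Sdha to Sdhb 1.73 (1.26 to 1.42). In replicate 23 the log2 ratio of Mdh2 to Mdh1 was 1.09 (0.37 to 0.63). The slow fibre score of replicate 23 was 6.14, the lowest of the female SMC mice, and those of replicates 4, 7 and 14 are given above. Their part in the values was not tested.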

How the results depend on the processing

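The labels give no pairing of mice and the groups share no replicate numbers, so no paired analysis was run. By the paper's methods, sham and SMC mice were kept in pairs for some of its experiments. Whether that held for the sequenced mice is not stated. For SMC against sham, 0 of 9 members were called in either sex and averaged under every alternative run and with each library left out. The number of all genes called moved more. In males it was 0, and became 128 with DESeq2, 93 with limma, 2 without replicates 4 and 14, 2 without replicates 4, 7 and 14 (a choice made after the data were seen) and 9 with the slow fibre score in the fit. In females it was 56, and became 268 with DESeq2, 37 with DESeq2 size factors in edgeR, 215 with total counts, 14 with only female libraries, 16 with limma, 137 without replicates 4 and 14, 155 without 4 and 7, 138 without 4, 7 and 14 and 177 with that score. Averaged over the sexes it was 388, and became 778 with DESeq2, 1861 with total counts, 189 with no filter, 256 without replicates 4 and 14 and 728 with that score. The difference between the sexes in response called 0 genes, and 1 with DESeq2. Male against female called 809, and became 1420 with limma, 1268 without 4 and 7, 1384 without 4, 7 and 14 and 1527 with that score. The members called between the sexes went from 0 to 3 without 4 and 14, to 3 without 4, 7 and 14, and to 1 (Fh1, FDR = 0.0384) with that score.

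With each library left out in turn the counts ranged from 0 to 78 in males (78 without male sham replicate 5), 0 to 147 in females (0 without female SMC replicate 22, 147 without female sham replicate 9), 236 to 501 averaged (236 without male sham replicate 1), 0 to 1 for the difference in response and 618 to 1086 between the sexes. The log2 fold change of Idh2 in females turned from 0.06 to -0.40 with that score (FDR = 0.268), and the cause was not tested. Of 45 uncalled member values, 13 changed sign with total counts, 8 with that score, 7 without replicates 4 and 7, 5 with limma, 4 without replicates 4, 7 and 14, 2 without 4 and 14, 1 with at least 10 counts in every library and 0 with DESeq2, DESeq2 size factors or no filter. The intervals of Idh2 and Mdh1 bound what could be detected for them.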

Other observations

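The Sucla2/Suclg2 ratio differed between the sexes in sham and in SMC mice, and the Ogdh/Dlst ratio in SMC mice only. This comparison was chosen after the values were seen, and covers 6 pairs within sham and within SMC mice, 12 two-sided exact permutation tests of 6 against 6. The log2 ratio of Sucla2, the ADP-specific subunit of succinyl-CoA synthetase, to Suclg2, the GDP-specific subunit, was 2.22 ± 0.11 (SD, n = 6) in male sham and 1.95 ± 0.06 in female sham mice. The male values ran from 2.09 to 2.36 and the female values from 1.88 to 2.02, so the groups did not overlap (exact permutation p = 0.00216, the smallest that 924 relabelings can give, adjusted p = 0.026). For levels of single genes, 1.13% of all genes did not overlap between male and female sham mice. The share among ratios of 2 genes was not computed. In SMC mice the ratio was 2.26 ± 0.13 in males and 2.0 ± 0.16 in females, with overlap (exact permutation p = 0.0108, adjusted p = 0.0433).

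The log2 ratio of Ogdh to Dlst was lower in males among SMC mice, at 2.02 ± 0.11 against 2.23 ± 0.10 in females (SD, n = 6, exact permutation p = 0.00433, adjusted p = 0.026). Among sham mice it was 2.02 ± 0.12 in males and 2.13 ± 0.09 in females (exact permutation p = 0.0974, adjusted p = 0.292). The remaining 8 tests had adjusted p-values of 0.509 to 0.996. Whether the sex difference of a ratio itself differs between sham and SMC mice was not tested.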
